A study of Danio rerio with 12 samples.

Results

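The genes of retinoic acid synthesis and breakdown were followed in whole zebrafish larvae exposed to tributyltin chloride (TBT), an organotin biocide known as a ligand of the retinoid X receptors (RXR) and of PPARγ. They were chosen by name, with earlier results of these data known. The 10 genes of the pathway were bco1, stra6, rdh10a, rdh10b, dhrs3a, dhrs3b, aldh1a2, cyp26a1, cyp26b1 and cyp26c1. These names matched 11 of the 26816 gene IDs in the expression table. The extra ID carries the name cyp26c1 but is annotated as an antisense RNA (ENSDARG00000097644), was listed at 0 or 1 in every library and was not tested (whether reads were counted by strand is not stated), so that 10 protein-coding genes remain, all of which passed the filter on low values. RNA-seq libraries were made from wild-type eleutheroembryos, the hatched stage that still lives on yolk, at 5 days post fertilization (dpf). The solvent control received 0.2% v/v dimethyl sulfoxide and the other groups received TBT in the same solvent at 3, 30 or 100 nM, in the water from 2 to 5 dpf. Each of the 4 groups had 3 libraries, and each library was a pool of 10 whole larvae. The labels do not state whether the 3 pools of a group were separate clutches or exposures, so the p-values cover only pool-to-pool spread, part or all of it possibly technical.

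Vitamin A reaches cells as retinol or is made from carotenoids. The oxygenase encoded by bco1 cleaves beta-carotene to retinaldehyde, and stra6 encodes the membrane receptor that takes up retinol from its carrier, retinol binding protein. Retinol dehydrogenase 10, encoded by rdh10a and rdh10b, oxidises retinol to retinaldehyde, and the reductases encoded by dhrs3a and dhrs3b return retinaldehyde to retinol. The dehydrogenase encoded by aldh1a2 makes retinoic acid, and the cytochromes encoded by cyp26a1, cyp26b1 and cyp26c1 hydroxylate and clear it. Retinoic acid acts through its receptors (RAR) bound to RXR, and in vertebrate embryos cyp26a1 and dhrs3 genes are themselves induced by retinoic acid.

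The values are the authors' normalised counts, which were whole numbers whose sum per library was 26500000 to 35800000. Estimated from the steps between low values, the unscaled totals were 23800000 to 49700000 reads in 11 of the 12 libraries; that of the second 100 nM library was not resolved. The values carry no gene length, so levels are compared between groups and not between genes; where marker genes are given as those with the highest counts, this is the mean count over the 12 libraries, not corrected for length. At these totals counting error alone came to between 7.21% and 10.6% of the value for cyp26a1, the gene with the lowest values, over the 11 resolved libraries. Markers of enterocytes, hepatocytes, pigment epithelium, cartilage and yolk were detected in these whole larvae, and none was at 0 in all 3 libraries of any group. On the yolk list vtg1 and vtg3 were near the floor, at 0 to 9 and 0 to 12 normalised counts, and are not read as a measure of yolk. The hepatocyte gene hpx had 3, 3 and 6 at 30 nM.

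The genes did not move together. At 100 nM against control, bco1 fell while cyp26b1 and dhrs3a rose, and the other 7 genes did not pass the test (limma on log2(normalised count + 1), Benjamini-Hochberg adjusted p under 0.05 over 22404 genes). That is 3 of 10 genes called, 2 higher and 1 lower, beside 17.5% of all genes tested; a count of this size is not read as particular to the pathway. In a fit of the 100 nM and control libraries alone, bco1 remained called (adjusted p = 0.034) and cyp26b1 (0.087) and dhrs3a (0.155) did not. Groups did not overlap for 4 of the 10 genes, beside 27.4% of all genes. At 30 nM against control 0 of 10 genes were called, beside 0.531% of all genes; 4 of 10 had an unadjusted p under 0.05, beside 9.68% of all genes. Groups did not overlap at 30 nM for 5 of the 10, beside 14.3% of all genes. At 3 nM 0 of 10 were called, beside 0.0402% of all genes; 1 had an unadjusted p under 0.05, beside 10.6%, and the same number did not overlap with control, beside 15.8%. The 3 comparisons share the same control libraries. As these genes and the lists below were chosen with earlier results known, their shares beside those of all genes are descriptive only.

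**Figure D1:**
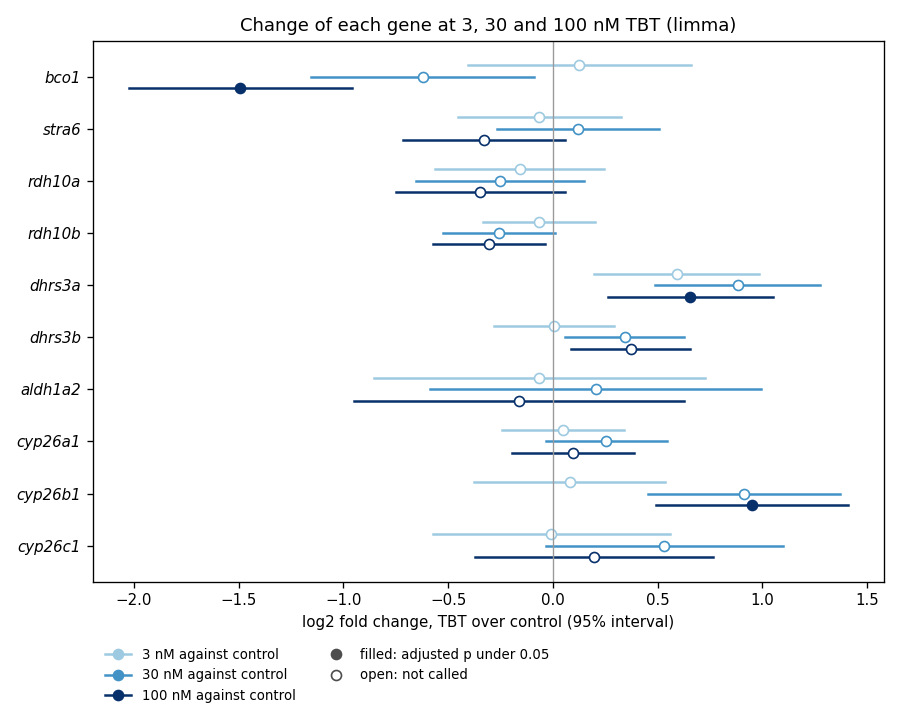
Fitted log2 fold change of TBT over control for the 10 genes (x axis), with 95% intervals, at 3, 30 and 100 nM (light to dark blue); filled points had an adjusted p under 0.05. Only bco1 at -1.49, dhrs3a at 0.66 and cyp26b1 at 0.95 are filled, all at 100 nM.

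At the entry into the pathway, bco1 fell. Its normalised counts (ENSDARG00000104256) were 340, 555 and 389 at 100 nM, 670, 913 and 736 at 30 nM, 1140, 1481 and 1265 at 3 nM, and 1042, 1722 and 915 in control. Every 100 nM library lay below every 30 nM library, and every 30 nM library lay below every control library by a margin of at least 2 counts (913 against 915), while 3 nM and control overlapped. The mean was 428 ± 113 at 100 nM against 1226 ± 434 in control (SD, n = 3 each), a 2.81-fold lower level (log2 fold change -1.49 ± 0.24 SE, limma adjusted p = 0.00184). That call was kept when any 1 of the 12 libraries was left out (adjusted p 0.0014 to 0.00957).

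The levels of bco1 fell stepwise over the upper concentrations, though the step from control to 30 nM was not called. bco1 was 1.83-fold lower at 100 than at 30 nM (-0.87 ± 0.24 SE, limma adjusted p = 0.0465), the only one of the 10 genes called in that comparison, beside 9.23% of all genes. Both bco1 and stra6 lay wholly below 30 nM at 100 nM, which makes 2 of 10 genes without overlap beside 27.1% of all genes. This second call of bco1 was lost when any 1 of the 3 nM or 30 nM libraries, 100 nM replicate 1 or 100 nM replicate 3 was left out, with adjusted p up to 0.161. It was also lost with equal totals (limma adjusted p = 0.0678) and in a fit of the 100 nM and 30 nM libraries alone (0.0561). The same held without the filter on low values (0.0516) and without the variance trend (0.0659). At 30 nM against control the log2 fold change was -0.62 ± 0.24 SE (adjusted p = 0.426), and at 3 nM it was 0.13 ± 0.24 SE (0.857).

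The retinol receptor gene stra6 (ENSDARG00000051874) had 932, 1231 and 1140 normalised counts at 100 nM, 1275, 1551 and 1678 at 30 nM, 1162, 1526 and 1279 at 3 nM, and 1097, 1697 and 1392 in control. The 100 nM and control libraries overlapped, and the log2 fold change was -0.33 ± 0.18 SE (limma adjusted p = 0.234). All 100 nM libraries lay below all 30 nM libraries, where the log2 fold change was -0.45 ± 0.18 SE (adjusted p = 0.153). The order of the means ran from 30 nM through control and 3 nM to 100 nM, and each neighbouring pair overlapped.

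**Figure D2:**
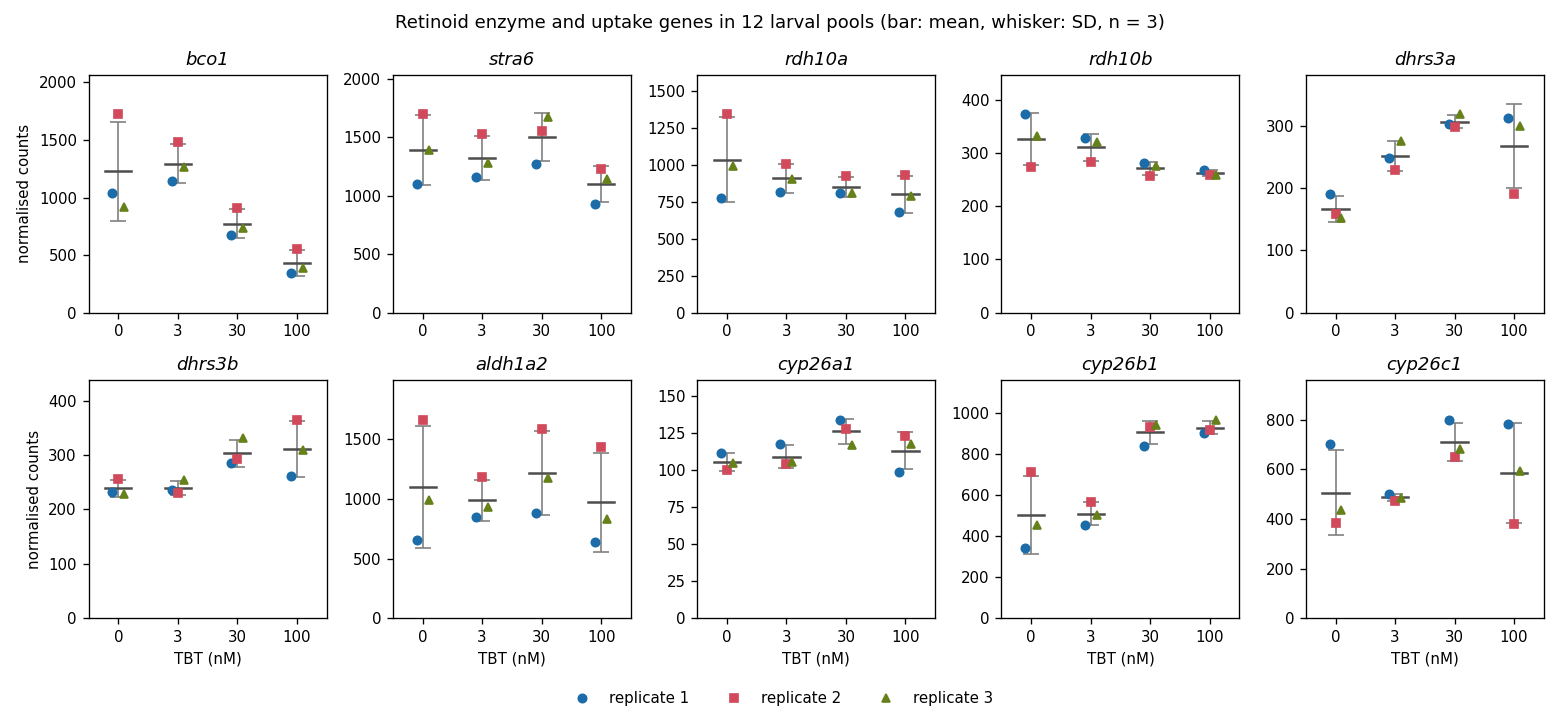
Normalised counts of each of the 10 genes (y axes, from 0) against TBT concentration in nM, with 1 symbol per library by replicate number, the group mean as a bar and the SD as a whisker (n = 3). bco1 steps down at 30 and 100 nM, cyp26b1 lies between 840 and 964 at both upper concentrations, and dhrs3a is lowest in control.

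Of 10 enterocyte marker genes 2 (apoa4b.2 and chia.1) fell and 0 rose at 100 nM, beside 7.9% and 9.63% of all genes. In a fit of the 100 nM and control libraries alone 0 of these calls were kept. The median log2 fold change of the 10 genes was -0.68 at 100 nM and 0.04 at 30 nM, against -0.02 and -0.004 over all genes. At 30 nM 1 of the 10, apoa4b.2, lay wholly below control (9402 to 11612 against 12209 to 17446). Wholly above control lay 0 of them, beside 14.3% of all genes without overlap in either direction. Their summed level was 33313 to 61069 normalised counts at 100 nM, 52681 to 73483 at 30 nM, 75179 to 81071 at 3 nM and 50943 to 99271 in control. Those with the highest counts, apoa4b.1 and apoa4b.2, apolipoprotein genes, had 11141 to 16149 and 5926 to 10875 at 100 nM, against 17515 to 19590 and 12209 to 17446 in control. Of these, apoa4b.1 was not called. The part of enterocyte RNA in the fall of bco1 was not tested. In libraries of whole larvae, fewer cells of a type and less RNA per cell cannot be told apart.

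In the list of carotenoid and lipid uptake genes, 3 of 4 genes tested fell at 100 nM and 0 rose, beside 7.9% and 9.63% of all genes (median log2 fold change -1.49, against -0.02 over all genes). Only 1 of the 3 calls, scarb1, was kept in a fit of the 100 nM and control libraries alone. The scavenger receptor gene scarb1, whose product takes up carotenoids and lipoprotein lipid, had 392, 341 and 379 normalised counts at 100 nM, 572, 604 and 584 at 30 nM, 1221, 1302 and 1025 at 3 nM, and 918, 2073 and 1144 in control. The 100 nM, 30 nM and control groups did not overlap, 3 nM overlapped with control, and scarb1 was 3.5-fold lower at 100 nM than in control (-1.81 ± 0.23 SE, limma adjusted p = 0.000459); the value at 30 nM did not pass the test (-1.14 ± 0.23 SE, 0.0631). NPC1L1, the gene of an intestinal sterol transporter, had 113, 458 and 135 at 100 nM against 428, 1606 and 592 in control. The groups of NPC1L1 overlapped (-1.95 ± 0.58 SE, adjusted p = 0.041), and leaving out any 1 of 8 libraries ended its call (adjusted p up to 0.144); it was kept without control replicate 1, 30 nM replicate 1, 30 nM replicate 2 or 100 nM replicate 2. For cd36, a fatty acid receptor gene, the log2 fold change was -1.18 ± 0.36 SE (0.0448), with 910, 1951 and 740 at 100 nM against 1600, 3927 and 2440 in control. The groups of cd36 overlapped, and its call was kept only without control replicate 1 or 100 nM replicate 2, with adjusted p up to 0.16 without the others.

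The retinol dehydrogenase genes rdh10a and rdh10b did not pass the test at any concentration. rdh10b (ENSDARG00000012369) had 268, 258 and 259 normalised counts at 100 nM, 280, 256 and 276 at 30 nM, 328, 282 and 320 at 3 nM, and 372, 274 and 332 in control. Every 100 nM library lay below every control library, and every 30 nM library below every 3 nM library. The log2 fold change at 100 nM was -0.31 ± 0.12 SE (limma adjusted p = 0.112). It passed the test without control replicate 2 (0.0279) and with all libraries scaled to equal totals (-0.49, 0.0111).

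rdh10a (ENSDARG00000058730) had 683, 930 and 790 normalised counts at 100 nM, 811, 927 and 811 at 30 nM, 814, 1007 and 903 at 3 nM, and 774, 1341 and 993 in control. The means followed the order of concentration, highest in control, but every neighbouring pair of groups overlapped. The log2 fold change at 100 nM was -0.35 ± 0.18 SE (limma adjusted p = 0.228), with a 95% interval of -0.75 to 0.06, and it passed the test without control replicate 1 (0.0424).

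The reductase gene dhrs3a rose. Its normalised counts (ENSDARG00000044982) were 314, 191 and 301 at 100 nM, 304, 299 and 319 at 30 nM, 249, 229 and 277 at 3 nM, and 191, 158 and 152 in control. All 3 nM and all 30 nM libraries lay above all control libraries, while 100 nM replicate 2 equalled the highest control library. The mean was 268.7 ± 67.6 at 100 nM against 167 ± 21 in control (SD, n = 3 each), a 1.58-fold higher level (log2 fold change 0.66 ± 0.18 SE, limma adjusted p = 0.0277).

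At 30 nM the log2 fold change of dhrs3a was 0.88 ± 0.18 SE, not called (unadjusted p = 0.000436, limma adjusted p = 0.0631), and 0.59 ± 0.18 SE at 3 nM (unadjusted p = 0.00696, adjusted p = 0.375). The 100 and 30 nM groups did not differ beyond their spread (-0.23, 95% interval -0.62 to 0.17). The 100 nM call rested on single libraries. It was lost without control replicate 2 (adjusted p = 0.065), control replicate 3 (0.105), 100 nM replicate 1 (0.105) or 100 nM replicate 3 (0.1), and with all libraries brought to equal totals (0.47, 0.0501). Without 100 nM replicate 2, dhrs3a passed the test at 30 nM (0.0104).

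Its paralogue dhrs3b (ENSDARG00000044803) had 261, 364 and 309 normalised counts at 100 nM, 286, 292 and 331 at 30 nM, 235, 230 and 254 at 3 nM, and 232, 256 and 228 in control. All 100 and 30 nM libraries lay above all 3 nM and control libraries. The log2 fold changes were nonetheless below the threshold, at 0.37 ± 0.13 SE for 100 nM (limma adjusted p = 0.0732) and 0.34 ± 0.13 SE for 30 nM (0.408). The 100 nM value passed it without 100 nM replicate 1 (0.0309).

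The gene of retinoic acid synthesis itself, aldh1a2 (ENSDARG00000053493), did not follow concentration. Its normalised counts were 638, 1436 and 834 at 100 nM, 883, 1582 and 1173 at 30 nM, 851, 1180 and 934 at 3 nM, and 654, 1659 and 987 in control. All 4 groups overlapped, and the spread within a group exceeded the differences between means. The log2 fold change at 100 nM was -0.16 ± 0.36 SE (limma adjusted p = 0.798), and its 95% interval of -0.95 to 0.63 leaves room for changes in either direction.

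Of the retinoic acid hydroxylases, cyp26b1 rose. It (ENSDARG00000077121) had 901, 917 and 964 normalised counts at 100 nM, 840, 931 and 941 at 30 nM, 454, 567 and 504 at 3 nM, and 340, 710 and 455 in control. All 6 libraries of the upper concentrations lay above all 6 libraries of 3 nM and control. The mean was 927.3 ± 32.7 at 100 nM against 501.7 ± 189 in control (SD, n = 3 each), a 1.93-fold higher level (log2 fold change 0.95 ± 0.21 SE, limma adjusted p = 0.00962).

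At 30 nM the fitted change of cyp26b1 was of nearly the same size (0.91 ± 0.21 SE) but was not called (unadjusted p = 0.00104, limma adjusted p = 0.0975). The difference between 100 and 30 nM was 0.04, with a 95% interval of -0.42 to 0.50. The call at 100 nM was kept without any 1 of the 12 libraries (adjusted p 0.000341 to 0.0419) and was lost with equal totals (0.76, 0.0615). Without control replicate 2, the highest control library, 30 nM was called as well (0.00328). Cartilage, in which cyp26b1 is known to act in zebrafish, gave 0 of 8 marker genes called at 100 nM, beside 17.5% of all genes (3 had a log2 fold change above 0, and the nearest to the threshold, acana, was 1.83-fold higher at adjusted p = 0.082), and their summed level of 31527 to 41231 normalised counts lay inside the 28793 to 56964 of control; col2a1a and col11a2, with the highest counts of the list, had 22842 to 30439 and 2104 to 3546 at 100 nM against 21090 to 38716 and 2370 to 6073 in control. The median control library had a summed level of 31430, and the 30 nM libraries had 38918 to 51791. At 30 nM 0 of 8 were called, beside 0.531% of all genes, and 2 had a limma unadjusted p under 0.05, beside 9.68%. Their median log2 fold change at 30 nM was 0.41, against -0.004 over all genes, with 7 of 8 above 0. The part of cartilage RNA in the rise of cyp26b1 was not tested.

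The other 2 hydroxylase genes did not pass the test. cyp26a1 (ENSDARG00000033999) had 99, 123 and 118 normalised counts at 100 nM, 134, 128 and 117 at 30 nM, 118, 104 and 106 at 3 nM, and 112, 100 and 105 in control. The 30 nM libraries lay above all control libraries, and the 100 nM libraries spread across the control range. The log2 fold change was 0.10 ± 0.13 SE at 100 nM (limma adjusted p = 0.665; -0.09 with equal totals) and 0.25 ± 0.13 SE at 30 nM (0.577). The 95% interval at 100 nM was -0.19 to 0.39.

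cyp26c1 (ENSDARG00000056029) had 785, 379 and 592 normalised counts at 100 nM, 799, 651 and 683 at 30 nM, 503, 473 and 486 at 3 nM, and 702, 384 and 435 in control. It overlapped between 100 nM and control, each of which held values from below 400 to above 700. Its log2 fold change was 0.20 ± 0.26 SE at 100 nM (limma adjusted p = 0.65) and 0.53 ± 0.26 SE at 30 nM (0.546).

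A joint test of the 4 groups called the same 3 genes, bco1 (limma adjusted p = 0.00358), cyp26b1 (0.0119) and dhrs3a (0.0289), beside 12.9% of all genes.

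The genes differed in how far they varied with the replicate number rather than with TBT. For bco1, cyp26b1, dhrs3a and dhrs3b, 69.1% to 84.5% of the sum of squares of log2(normalised count + 1) lay between groups, against a median of 39.1% over all genes tested. As bco1, cyp26b1 and dhrs3a were called on these same values, their high shares restate that test and add no support to it. The shares of rdh10b (58.8%), cyp26a1 (50.9%) and stra6 (41.9%) also lay above the median, and those of cyp26c1 (35.8%) and rdh10a (28.7%) below it. For aldh1a2 only 9.39% lay between groups and 80.5% lay between replicate numbers, where the median of all genes was 28.1%. Replicate 2 had the highest and replicate 1 the lowest level of aldh1a2 in 4 of 4 groups, and the same held for rdh10a, except that its replicates 1 and 3 tied at 811 at 30 nM. cyp26c1 and rdh10b ran the other way, with replicate 1 highest and replicate 2 lowest in 4 of 4 groups. A part of such an order was seen in other genes too. Replicate 2 was highest for bco1, and replicate 1 was lowest for cyp26b1 and stra6, in 4 of 4 groups. For stra6 49.4% lay between replicate numbers. How often all genes show such an order was not counted. The labels do not say what libraries with the same number share, though the column names of such libraries run consecutively across the 4 groups.

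**Figure D3:**
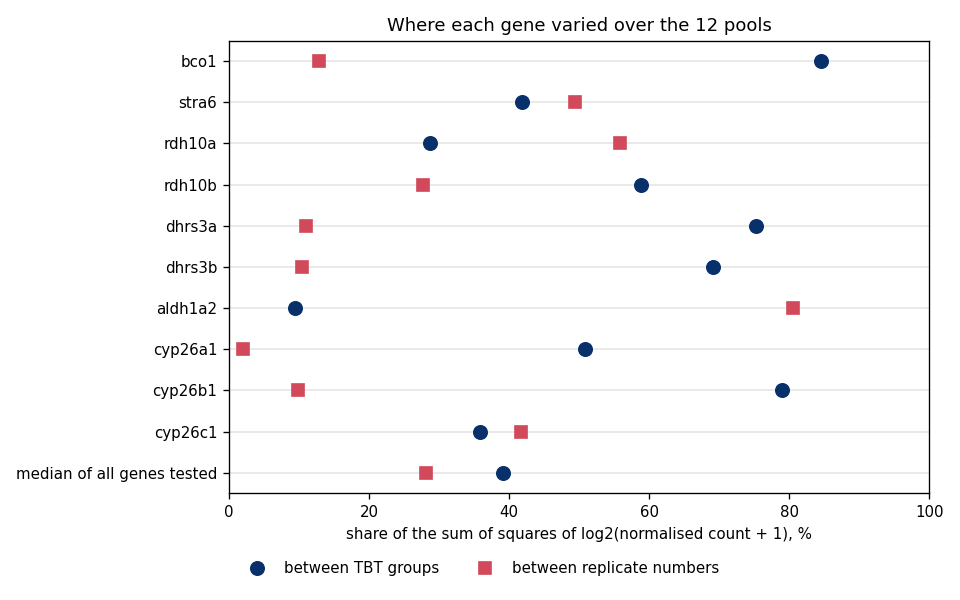
Share of each gene's sum of squares over the 12 libraries, in percent (x axis), that lay between the 4 TBT groups (circles) and between the 3 replicate numbers (squares), with the median over all genes tested in the last row. aldh1a2 is at 9.39% and 80.5%, bco1 at 84.5% and 12.9%.

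Ratios of paralogues were taken within each library, on normalised counts + 1. The log2 ratio of cyp26b1 to cyp26a1 averaged 3.03 ± 0.14 at 100 nM, 2.83 ± 0.18 at 30 nM, 2.20 ± 0.25 at 3 nM and 2.17 ± 0.61 in control (SD, n = 3 each). The 100 nM libraries lay above all control libraries, of which replicate 2 came nearest at 2.81 (2.89 for the lowest 100 nM library). An exact permutation test over the 4 groups gave p = 0.0488, which was 0.244 after adjustment over the 5 ratios computed, and from 0.0114 (without control replicate 2) to 0.441 after adjustment with 1 library left out. The ratio of dhrs3a to dhrs3b averaged -0.23 ± 0.62 at 100 nM, 0.02 ± 0.07 at 30 nM, 0.07 ± 0.07 at 3 nM and -0.52 ± 0.21 in control (exact permutation p = 0.181, adjusted 0.453). The ratio of rdh10a to rdh10b was nearly level, at 1.60 ± 0.25 for 100 nM and 1.64 ± 0.62 for control (exact permutation p = 0.979, adjusted 0.979). Those of cyp26c1 to cyp26a1 and of cyp26b1 to cyp26c1 gave adjusted p = 0.94 and 0.756 in the same permutation tests.

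**Figure D4:**
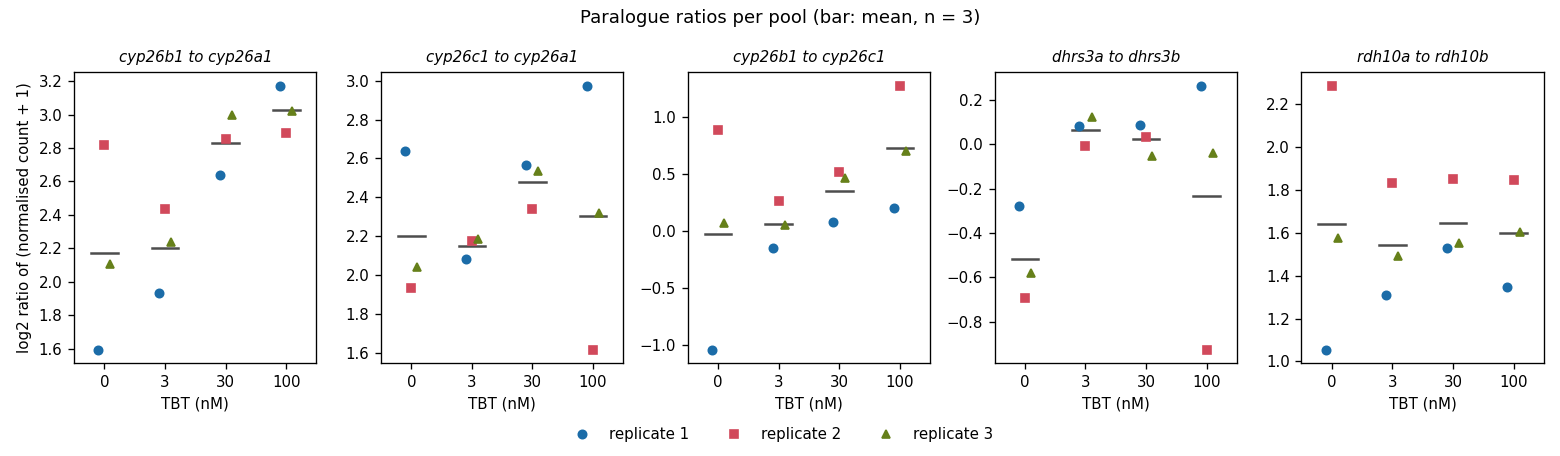
Log2 ratio of the normalised counts + 1 of 2 paralogues in each library (y axes, not starting at 0) against TBT concentration in nM, with group means as bars. The ratio of cyp26b1 to cyp26a1 averages 3.03 at 100 nM and 2.17 in control, while that of rdh10a to rdh10b averages 1.60 and 1.64.

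Around these 10 genes, 5 lists of other retinoid genes held 114 symbols, of which 103 gene IDs were found and 101 tested. At 100 nM 11 rose and 13 fell, beside 9.63% and 7.9% of all genes, with a median log2 fold change of 0.01 against -0.02 over all genes. Of these 24 calls, 13 were kept whichever library was left out, 17 with equal totals and 5 in a fit of the 100 nM and control libraries alone; without control replicate 3 the list had 15 calls. At 30 nM 2 rose and 0 fell, beside 0.531% of all genes called, and 0 of these were kept in a fit of the 30 nM and control libraries alone. At 3 nM 0 of 101 were called by limma, beside 0.0402% of all genes, and 10 had an unadjusted p under 0.05, beside 10.6% of all genes.

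**Figure D5:**
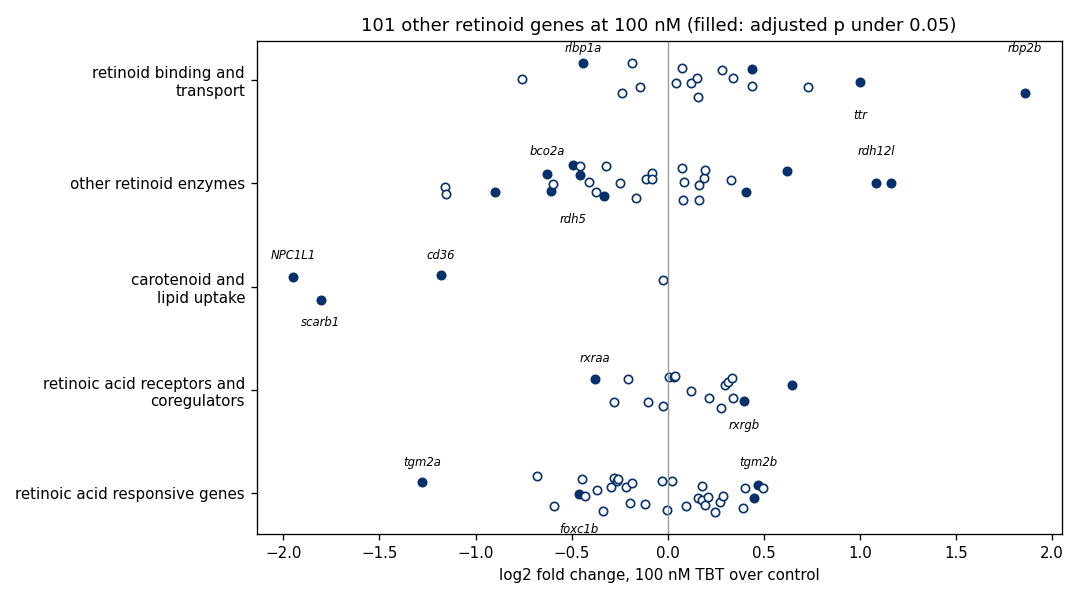
Log2 fold change at 100 nM TBT over control (x axis) of the 101 other retinoid genes tested, 1 circle per gene, by list; filled circles had an adjusted p under 0.05, and up to 3 of the called genes with the lowest p of each list are named. scarb1 at -1.81 and NPC1L1 at -1.95 are the lowest of the carotenoid and lipid uptake list, and rbp2b at 1.86 is the highest of the binding and transport list.

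Among 17 retinoid binding and transport genes, 3 rose and 1 fell at 100 nM, beside 9.63% and 7.9% of all genes, and 1 of the 4 calls, rbp2b, was kept in a fit of the 100 nM and control libraries alone. rbp2b, the gene of a cellular retinol binding protein, had 2826, 4918 and 5647 normalised counts at 100 nM, 3586, 6861 and 5600 at 30 nM, 1509, 1788 and 1675 at 3 nM, and 859, 1474 and 1295 in control. All 3 exposed groups lay wholly above control. The rise was 3.63-fold at 100 nM (1.86 ± 0.29 SE, limma adjusted p = 0.00161) and 4.38-fold at 30 nM (2.13 ± 0.29 SE, 0.0099), the 30 nM call being lost without 30 nM replicate 2 or 30 nM replicate 3 (up to 0.0658).

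ttr encodes transthyretin, the plasma partner of retinol binding protein. It had 1194, 1201 and 2098 normalised counts at 100 nM, 1589, 1888 and 1744 at 30 nM, 906, 915 and 1186 at 3 nM, and 607, 869 and 713 in control, so all 3 exposed groups lay wholly above control. The log2 fold change was 0.999 ± 0.215 SE at 100 nM (limma adjusted p = 0.00886) and 1.26 ± 0.22 SE at 30 nM (0.0264); the 30 nM call was lost with equal totals (0.089) and without control replicate 1, control replicate 3, 3 nM replicate 1 or any 30 nM library (up to 0.129). Hepatocyte markers rose in 4 of 10 genes and fell in 0 at 100 nM, beside 9.63% and 7.9% of all genes. These were ttr itself, fabp10a, ambp and hpx, the last with only 5, 15 and 11 in control. Of the 10 genes 9 had a log2 fold change above 0 at 100 nM. The exception was cp, at -0.83 ± 0.54 SE (limma adjusted p = 0.325). At 30 nM ttr and fabp10a rose, 2 of 10 beside 0.531% of all genes, and 0 of these calls were kept in a fit of the 30 nM and control libraries alone. The summed level of the list was 202019 to 288884 normalised counts at 100 nM and 225968 to 281192 at 30 nM, against 134813 to 222517 in control. The genes with the highest counts, apoa2 and rbp4, had 62264 to 120565 and 50799 to 100474 at 100 nM against 46178 to 104740 and 38455 to 85537 in control. The part of liver RNA in the rise of ttr and rbp2b was not tested.

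Both rlbp1a and rdh5, whose products are known from the regeneration of retinaldehyde in the eye, fell at 100 nM. rlbp1a, a retinaldehyde binding protein gene, had 480, 459 and 444 normalised counts at 100 nM against 630, 652 and 598 in control (-0.44 ± 0.08 SE, limma adjusted p = 0.00387, and 0.0776 in a fit of these libraries alone). At 30 nM rlbp1a was nearly as low, with 490, 471 and 463, wholly below control but not called (-0.40 ± 0.08 SE, limma adjusted p = 0.0631). rdh5, the gene of a retinol dehydrogenase of the pigment epithelium, had 1110, 956 and 1206 at 100 nM, 1878, 1902 and 1978 at 30 nM, 1620, 1795 and 1627 at 3 nM, and 1500, 1581 and 1501 in control. The groups of rdh5 did not overlap, with 30 nM highest and 100 nM lowest; it fell by 0.49 on the log2 scale at 100 nM against control (SE 0.09, adjusted p = 0.00508, and 0.0776 in the fit of these libraries alone) and by 0.82 against 30 nM (0.000455).

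The same order of means, 30 nM highest and 100 nM lowest, each without overlap against control, was seen in LRAT and in rlbp1b. LRAT is a gene of the enzyme that esterifies retinol. The other lrat genes on the list, lrata and lratb, did not show this order and overlapped between 30 nM and control. At 30 nM lrata had 66, 42 and 49 against 94, 43 and 52 in control, and lratb 58, 74 and 79 against 78, 66 and 84. LRAT had 1044, 906 and 1093 normalised counts at 100 nM, 1662, 1475 and 1626 at 30 nM, 1574, 1642 and 1476 at 3 nM, and 1327, 1161 and 1342 in control (100 against 30 nM -0.65 ± 0.10 SE, limma adjusted p = 0.0025). rlbp1b had 2863, 3145 and 3260 at 100 nM, 4342, 4499 and 4833 at 30 nM, 3760, 4352 and 3899 at 3 nM, and 3319, 3633 and 3998 in control (100 against 30 nM -0.56 ± 0.10 SE, 0.00572). Pigment epithelium and eye pigment markers, counted without stra6, rose in 4 of 9 genes and fell in 0 at 100 nM, beside 9.63% and 7.9% of all genes, with a summed level of 82959 to 105799 at 100 nM, 61150 to 71173 at 30 nM and 48058 to 54454 in control. bhmt and pmela had the highest counts, at 58517 to 77405 and 8185 to 10767 for 100 nM against 25020 to 31130 and 5842 to 7682 for control. bhmt thus made up most of the sum, so the summed level mainly follows this 1 gene. Whether bhmt came from pigment cells was not tested, so the sum is not read as a measure of pigment cell RNA. The 4 calls were bhmt, slc45a2, oca2 and pmela, and 2 of them (oca2 and pmela) were lost with equal totals. In whole larvae the tissue source of these 4 genes was not tested, and the count is not read as a rise of pigment epithelium. rlbp1b is itself on that list and went the other way, wholly below control at 100 nM. Of the 9 genes 6 had a log2 fold change above 0 at 100 nM, while rpe65a had -0.11 ± 0.15 SE (limma adjusted p = 0.643). The part of pigment cell RNA in the levels of stra6, rlbp1a, rlbp1b, rdh5 and LRAT was not tested.

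Of 30 other retinoid enzyme genes, 4 rose and 6 fell at 100 nM, beside 9.63% and 7.9% of all genes, with rdh5 among the falls. In a fit of the 100 nM and control libraries alone 1 of these 10 calls, rdh12l, was kept. rdh12l, a retinol dehydrogenase gene, had 597, 392 and 398 normalised counts at 100 nM against 249, 214 and 182 in control, without overlap (1.08 ± 0.18 SE, limma adjusted p = 0.0025). bco2a, the gene of a second carotenoid oxygenase, had 294, 352 and 294 at 100 nM against 439, 506 and 506 in control, also without overlap (-0.63 ± 0.12 SE, 0.00397; 0.0541 in the fit of these libraries alone).

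Among 17 genes of retinoid receptors and of nuclear receptor corepressors and coactivators, 2 rose and 1 fell at 100 nM, a share close to the 17.5% of all genes called. The RXR gene rxraa had 577, 536 and 604 normalised counts at 100 nM, 690, 704 and 694 at 30 nM, 645, 676 and 681 at 3 nM, and 721, 743 and 764 in control. The groups did not overlap, and their order was not that of concentration, since 3 nM lay below 30 nM. rxraa fell at 100 nM (against control -0.38 ± 0.08 SE, limma adjusted p = 0.00781, and 0.112 in a fit of the 100 nM and control libraries alone; against 30 nM -0.28 ± 0.08 SE, 0.0469). Another RXR gene, rxrgb, had 516, 438 and 472 at 100 nM against 404, 339 and 341 in control (0.40 ± 0.12 SE, 0.0392), and its call was lost with equal totals (0.168) and kept only without control replicate 1, 3 nM replicate 1, 3 nM replicate 2 or 100 nM replicate 2 (up to 0.135 without the others). The rxraa call against 30 nM was lost without most of the libraries, with adjusted p up to 0.138.

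Of 33 genes listed as responsive to retinoic acid, 2 rose and 2 fell at 100 nM, beside 17.5% of all genes called, with a median log2 fold change of -0.03. The list was not split by the direction of the response, so its median does not measure a response to retinoic acid. In a fit of the 100 nM and control libraries alone 1 of these 4 calls, tgm2a, was kept. tgm2a, a transglutaminase gene, had 139, 106 and 159 normalised counts at 100 nM, 335, 337 and 387 at 30 nM, 523, 413 and 580 at 3 nM, and 285, 356 and 335 in control. Every 100 nM library of tgm2a lay below all others; it was 2.43-fold lower than in control (-1.28 ± 0.17 SE, limma adjusted p = 0.000596) and 2.64-fold lower than at 30 nM (-1.40 ± 0.17 SE, 0.000642). Its paralogue tgm2b went the other way, with 1315, 1212 and 1382 at 100 nM against 1056, 807 and 972 in control (0.47 ± 0.11 SE, 0.0126; 0.0663 with equal totals). foxc1b, a forkhead factor gene, had 328, 327 and 376 at 100 nM against 467, 470 and 482 in control (-0.46 ± 0.12 SE, 0.0196), and its call was lost without control replicate 3 or 100 nM replicate 1 (up to 0.0702). Between 100 and 30 nM, dusp6, a MAP kinase phosphatase gene, rose, with 5091, 4869 and 4527 at 100 nM against 3629, 3472 and 3603 at 30 nM (0.43 ± 0.09 SE, 0.014; 0.0551 with equal totals, and up to 0.0582 without 30 nM replicate 2, 30 nM replicate 3 or 100 nM replicate 1).

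For the 3 called genes, the 3 most similar profiles were taken among 17928 genes with a symbol, by the root mean square difference of log2 values centred on control over 12 libraries. Nearest to bco1 were ankrd9 (0.267), slc47a1 (0.269) and apoa4b.3 (0.269), an apolipoprotein gene of a family whose members may share reads. Their means at 100 nM and in control were 376.3 and 895.7, 141 and 359.3, and 935 and 2230 normalised counts. Nearest to cyp26b1 were AEBP1 (0.144), notchl (0.167) and cthrc1a (0.181), with means of 1670 and 921, 111.7 and 65.67, and 474 and 226.7. Nearest to dhrs3a were trim101 (0.147), igf2a (0.196) and gyg1b (0.2), with means of 1182 and 713, 467.7 and 309, and 5220 and 3159.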

How the data were processed

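The 12 RNA-seq libraries, 3 per group, came from pools of whole larvae. Per the labels' protocols, poly(A) RNA from 500 ng total RNA went through a stranded dUTP kit with 15 PCR cycles, and paired 76 nt reads averaged 42000000 pairs. Build GRCz10 and the tools STAR 2.5.1b, RSEM 1.2.28, DESeq2 1.10.1 and CASAVA appear in the submitters' processing notes without roles; which annotation release was used is not stated there. The values of the deposited files used here are a score: per the file headers, normalised counts, in whole numbers already scaled per library by the authors, so no count model was used. In 12 of 12 libraries the per-sample values equalled those of the series table. No sequences or coordinates were used here.

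Testing was limited to the 22404 genes that reached 10 in 3 or more libraries, as log2(value + 1), which understates changes of low genes, with limma 3.58.1 in R 4.3.3 on all 12 libraries (empirical Bayes with a variance trend). P-values were adjusted by Benjamini-Hochberg over all genes tested, with a threshold of 0.05. The script was tested on simulated data. Exact permutation tests over libraries used Python 3.11.15 and scipy 1.17.1; the paralogue ratios were added after the data had been seen. Markers and wider lists were matched by symbol. Named genes were the 10 genes; per wider list the 3 called genes with the lowest p at 100 nM and at most 2 in other comparisons; the 3 nearest profiles of each called gene; and the 2 markers with the highest mean count per list. A gene that this rule would name is not reported here. Markers of yolk (apoa1b and apobb.1 highest) gave 0 calls among 4 genes tested at 100 nM, beside 17.5% of all genes, with a summed level of 109185 to 236285 over 6 genes, against 152027 to 242818 in control. The genes and lists were chosen with earlier results of these data known. Alternatives were another pseudocount (5), other filters, equal totals, a fit of the compared groups alone, no variance trend, a 1.5-fold minimum, a threshold of 0.10, a replicate block and each library left out.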

Additional observations from a re-analysis of the deposited data

How the results depend on the processing

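A fit of the compared groups alone gave fewer calls at 100 nM and a replicate block gave more. In the main fit limma called 11 of 101 wider genes between 100 and 30 nM, 3 higher and 8 lower, a share close to the 9.23% of all genes called. With the compared groups alone, 1 of the 10 genes (bco1, adjusted p = 0.034) was called at 100 nM, cyp26b1 (0.087) and dhrs3a (0.155) being lost; 5 wider retinoid genes and 1153 of all genes were called at 100 nM, 0 and 15 at 30 nM, 0 of all genes at 3 nM, and 0, 6 and 1164 between 100 and 30 nM. Replicate numbers were not taken as pairs in the main tests, as 13 of 18 same-number pairs, not all, correlated over 0.1 after removal of group means. Same-number libraries of replicates 1 and 2 correlated at 0.29 to 0.58, those of replicate 3 at -0.02 to 0.15, and different numbers at -0.60 to 0.21. In all, 10 of 12 libraries correlated best with their own number. The main tests therefore count deviations shared by same-number libraries as part of the spread. With the replicate block, calls among the 10 genes, the wider genes and all genes were 7, 43 and 7678 at 100 nM, 3, 11 and 778 at 30 nM, 1, 2 and 1234 at 3 nM and 2, 27 and 4540 between 100 and 30 nM; the joint test called 5 of the 10 genes and 7570 of all. The genes added at 100 nM were dhrs3b, stra6, rdh10a and rdh10b, at adjusted p of 0.0158 to 0.0299. With equal totals, which put the all-gene median at 100 nM at -0.21 instead of -0.02 (log2), wider genes called were 1 at 30 nM and 6 between 100 and 30 nM, all genes at 30 nM 62, and bco1 was not called between 100 and 30 nM (0 of 10 genes, adjusted p = 0.0678). That call was also 0 without the filter (0.0516) and without the variance trend (0.0659), which gave 0 of all genes at 3 nM. A 1.5-fold minimum left 13 wider and 2587 of all genes at 100 nM and 5 wider genes between 100 and 30 nM. A threshold of 0.10 gave 2 of the 10 genes, 4 wider and 251 of all genes at 30 nM, and 3142 of all genes between 100 and 30 nM. Signs turned with equal totals for values that were not called: cyp26a1 at 100 nM (-0.091) and 3 nM (-0.044), cyp26b1 at 3 nM (-0.013) and against 30 nM (-0.081), and dhrs3b at 3 nM (-0.086) and against 30 nM (-0.09).

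With 1 library left out, calls at 100 nM ranged from 2 to 4 of the 10 genes, 15 to 27 wider genes and 2289 to 4621 of all genes, the lowest of the last 2 without control replicate 3. At 30 nM they ranged from 0 to 1, 0 to 3 and 28 to 267; at 3 nM 0 to 33 of all genes; between 100 and 30 nM 0 to 1, 4 to 15 and 1041 to 2492; and in the joint test 1803 to 3344 of all genes. Uncalled log2 fold changes whose sign turned ranged, at 3 nM, from -0.008 to 0.09 for cyp26a1, -0.17 to 0.36 for cyp26b1, -0.18 to 0.25 for cyp26c1, -0.036 to 0.058 for dhrs3b, -0.057 to 0.399 for bco1, -0.226 to 0.088 for stra6, -0.351 to 0.045 for rdh10a, -0.184 to 0.036 for rdh10b and -0.39 to 0.29 for aldh1a2; at 30 nM, from -0.043 to 0.271 for stra6 and -0.12 to 0.55 for aldh1a2; and at 100 nM, from -0.047 to 0.477 for cyp26c1 and -0.49 to 0.19 for aldh1a2. Against 30 nM they ranged from -0.014 to 0.068 for cyp26b1, -0.356 to 0.001 for dhrs3a, -0.09 to 0.15 for dhrs3b and -0.207 to 0.016 for rdh10a. The 100 nM minus control log2 ratios ranged from -0.24 to 0.44 for cyp26c1 to cyp26a1 and -0.33 to 0.28 for rdh10a to rdh10b. The causes were not tested. With 3 pools per group, 95% intervals of about 0.3 to 0.8 on the log2 scale either side limit what can be seen of the uncalled genes.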
